A study of Mus musculus with 32 samples.

Results

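Livers of WT males fed CDAHFD were compared with livers of WT males fed ND by RNA-seq of whole tissue. The members are the libraries whose titles place them in WT, in the male column and on either diet, 8 of the 32 liver libraries of the series, with 4 per diet. All 8 came from male mice labelled C57BL/6 (C57Bl/6J in the study's methods) carrying intact Cyp2b genes, which started their diet at 10 weeks of age and stayed on it for 8 weeks. CDAHFD is a choline-deficient, amino acid-defined diet with 62% fat and 0.1% methionine, used as a dietary model of steatohepatitis, and ND is normal chow, so fat, choline, methionine and amino acid source cannot be told apart as parts of the diet effect. The other libraries, from WT females and from Cyp2b-null mice of both sexes lacking Cyp2b9, Cyp2b10 and Cyp2b13, entered only where a difference between diet effects was tested. Total counts on genes were 6300159, 7385812, 8474172 and 5343468 in ND replicates 1 to 4 and 5266992, 4483301, 7124262 and 4737519 in CDAHFD replicates 1 to 4. Levels are given in CPM, the usual scale of counts relative to library size, after TMM scaling, always in the order of replicates 1 to 4. A floor of 3 counts corresponded to between 0.345 and 0.642 CPM, and floors and intervals cover counting error only.

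Alb, the serum albumin gene and a defining hepatocyte marker, was at 100400, 90080, 94750 and 101800 CPM on ND and 79820, 68630, 44320 and 54140 CPM on CDAHFD, with most counts of the hepatocyte markers. The Y-linked gene Eif2s3y was at 46.9 to 55.7 CPM on ND and 42.5 to 47.5 CPM on CDAHFD, and Kdm5d and Uty were at 9.85 CPM or more in every library. Xist, the non-coding RNA of the inactive X chromosome, reached at most 1.07 CPM. The libraries differed in ribosomal RNA, and the 18S rRNA entry took 1.84, 7.35, 1.72 and 3.97% of counts on ND and 1.66, 2.18, 1.45 and 0.480% on CDAHFD. ND replicate 2 stood highest in that share. The TMM scaling factors fell into separate ranges, 0.879, 0.835, 0.878 and 0.874 on ND and 1.02, 1.09, 1.22 and 1.21 on CDAHFD, and the 10 genes with most counts held 20.8, 26.5, 20.4 and 23.5% of counts on ND and 20.7, 21.2, 17.2 and 17.4% on CDAHFD.

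Choline is needed to make phosphatidylcholine, which the liver uses to package triglyceride into very low density lipoprotein, and methionine feeds the methylation route to the same lipid. Diets that lack choline and are low in methionine are known to leave fat in hepatocytes and to lead to inflammation, macrophage influx and collagen deposition by hepatic stellate cells. The liver also carries large programs of its own, among them lipid synthesis, bile acid production, drug metabolism and a set of genes set apart between the sexes by the pattern of growth hormone release.

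Of 13460 genes tested with edgeR's quasi-likelihood test, 4443 (33.0%) were called between the diets at a Benjamini-Hochberg adjusted p under 0.05, 2426 (18.0%) higher and 2017 (15.0%) lower on CDAHFD. Changes are log2 changes of CDAHFD over ND, with n = 4 per group throughout. Of the genes called, 1561 rose by more than 1 and 459 fell by more than 1 on the log2 scale. The filter on low counts itself favours rises here. Of the genes called higher, 831 passed it through CDAHFD libraries only, and of those called lower, 86 passed it through ND libraries only. Of the other 11834 genes tested, 13.5% were called higher and 16.3% lower. The 4 CDAHFD and the 4 ND libraries did not overlap for 3817 genes (28.4%), of which 3405 were called. The median change over all genes tested was −0.023. With scaling by library size only, this median moved to 0.37 and the split of calls moved to 5102 higher and 583 lower, so moderate falls in particular depend on the TMM scaling. Where that scaling turned the sign of a list's median or moved a list's count by more than 1.5 times, its values stand in parentheses.

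Biology was read from 55 gene lists, 14 of cell markers and 41 of pathways, which held 1070 genes, 954 of them tested. Each list is given by the number of its genes called higher and lower and by its median, to be read against 18.0%, 15.0% and −0.023 over all genes. Wherever edgeR's quasi-likelihood test with TMM scaling called 0 genes of a list in a direction below, DESeq2 also called 0, and 0 genes were at an unadjusted p under 0.05 in that direction except 1 lower gene each in the collagen and TGF-beta lists. Of the genes tested, 1458 passed the filter on low counts through CDAHFD libraries only, and 831 of these were called higher. Another 168 passed through ND libraries only, and 86 of these were called lower. Such genes lean to that direction by the filter itself, and of the other 11834, 13.5% were called higher and 16.3% lower. In 18 of the 54 lists with a tested gene, 25% or more passed through 1 diet only, and these lists are given by the calls among their other genes. In the remaining lists such genes, where there were any, are counted in.

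**Figure D1:**
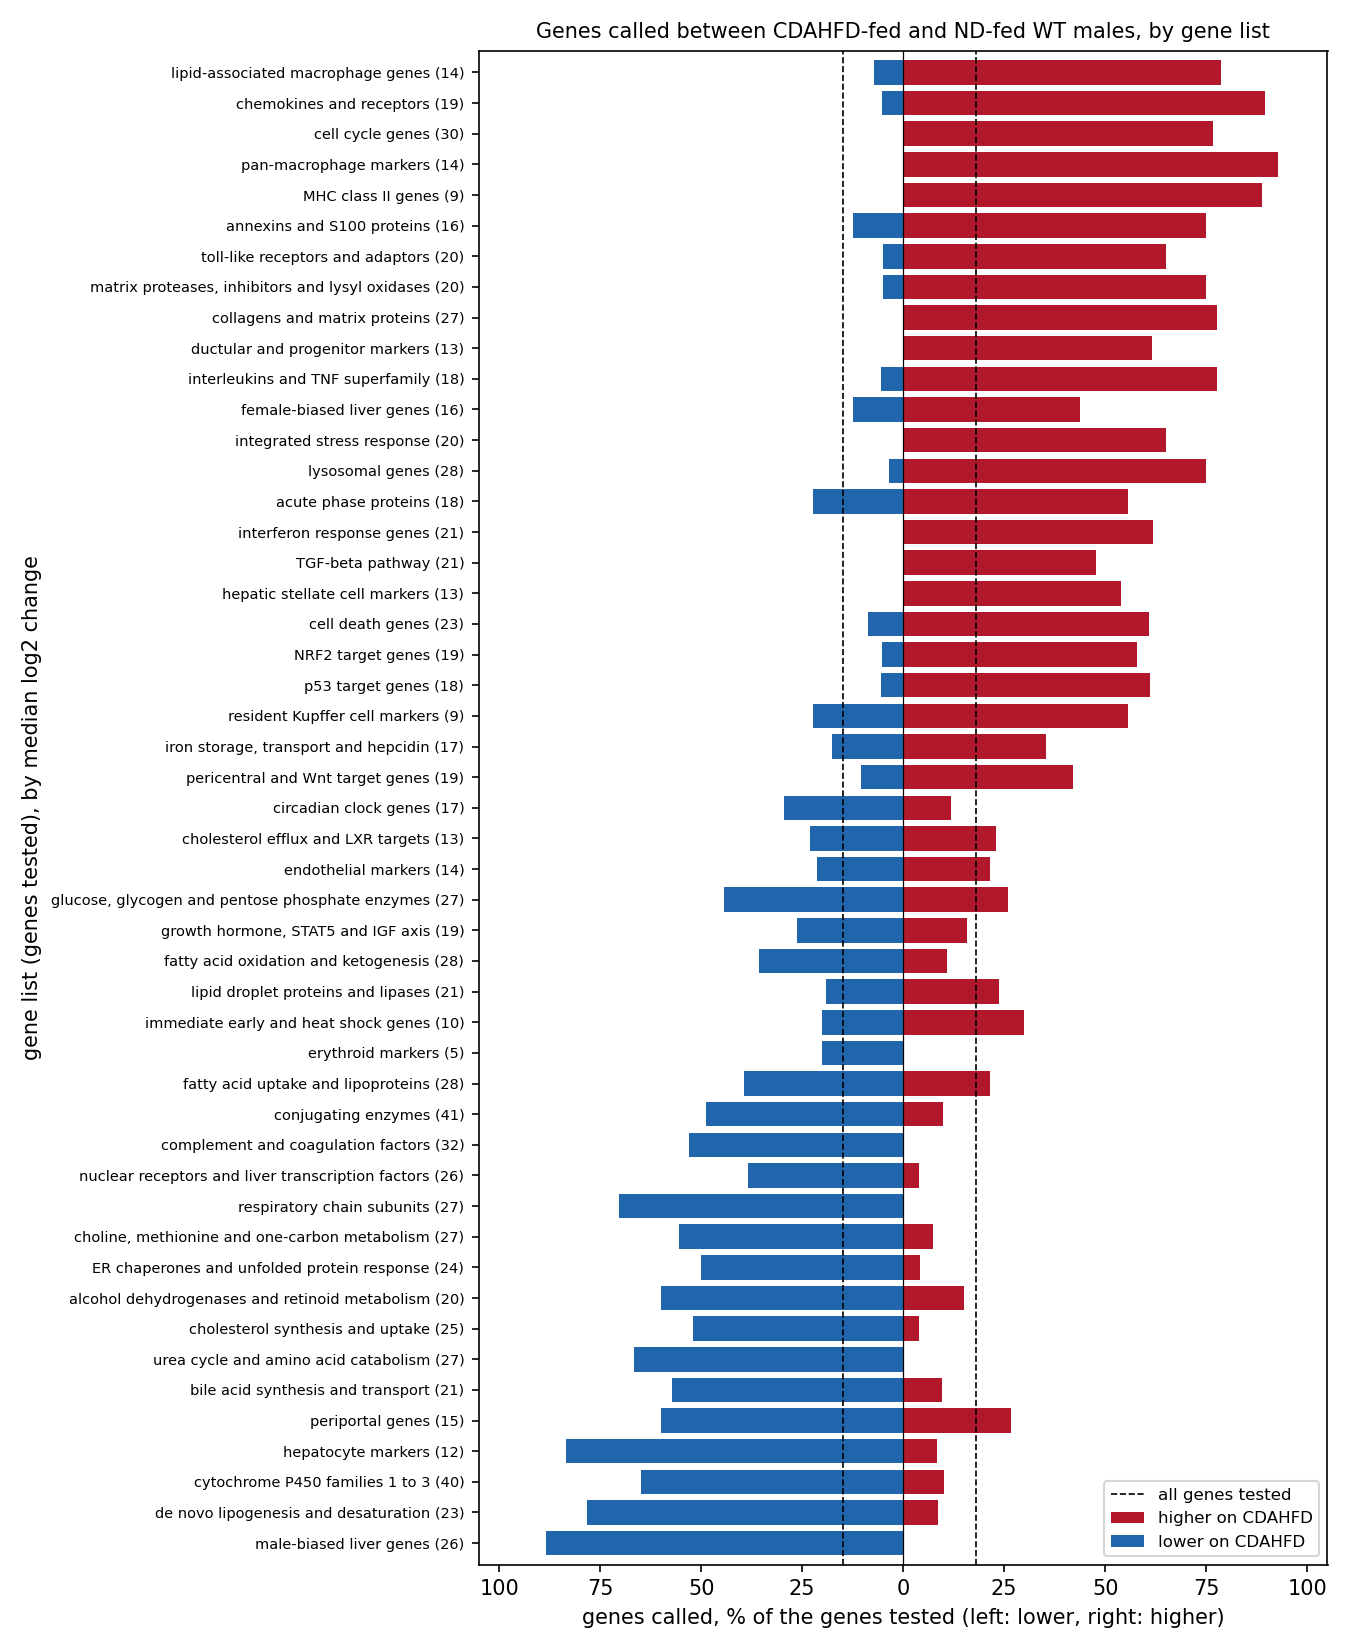
Share of the tested genes of each list with at least 5 tested called higher (red, right) or lower (blue, left) on CDAHFD in WT males, with the number tested in brackets, lists ordered by median log2 change and dashed lines at 18.0% higher and 15.0% lower over all genes tested. Genes that passed the filter through 1 diet only are included. Male-biased liver genes stand at the bottom with 23 of 26 lower (22 under library-size scaling), and lipid-associated macrophage genes at the top with 11 of 14 higher and a median of 3.17 (3.57 under library-size scaling).

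The genes that moved most were sought among those called that averaged 5 CPM or more and kept the diets apart in every library. For genes chosen in this way, rises or falls, the lack of overlap was a condition of the choice and not a result. Lcn2, Ly6d, Adam8, Nrg1 and, further below, Itgam were at 1.45 CPM or less in every ND library. That was too low to pass the filter on low counts through these libraries. Because genes that pass it through CDAHFD lean to rises, the adjusted p of these genes is not read as support. Lcn2 (chr2:32384637-32387739, GRCm38.p6), which encodes lipocalin-2, an acute phase protein that binds bacterial iron carriers, was at 1.45, 1.14, 0.806 and 1.29 CPM on ND and 205, 185, 188 and 133 CPM on CDAHFD. Every CDAHFD library was far above every ND library and the spread within each diet was narrow (log2 change 7.26, SE 0.29, adjusted p = 7.45e-13). Ly6d, a small surface protein of the Ly6 family, was at 0.181, 0.162, 0.537 and 0 CPM on ND and 19.2, 46.1, 52.6 and 28.4 CPM on CDAHFD. It was near or under the floor in all ND libraries and lowest in replicate 1 among the CDAHFD libraries (log2 change 7.09, SE 0.60, adjusted p = 1.50e-08; 8.03 without ND replicate 3). Adam8, a membrane metalloprotease of leukocytes, was at 1.08, 0, 0.134 and 0 CPM on ND and 16.9, 27.4, 33.3 and 23.0 CPM on CDAHFD. Only ND replicate 1 held more than the floor among the ND libraries, and no CDAHFD library came near it (log2 change 6.33, SE 0.50, adjusted p = 6.18e-09; 8.43 without ND replicate 1). Nrg1, the gene of the ErbB ligand neuregulin-1, was at 0, 0.324, 0 and 0.428 CPM on ND and 16.01, 14.5, 14.4 and 9.59 CPM on CDAHFD, with every CDAHFD library above every ND library (log2 change 6.18, SE 0.52, adjusted p = 1.13e-08; 6.79 without ND replicate 4).

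Itgam, the alpha chain of the complement receptor CD11b, was at 0.542, 0.324, 0.403 and 0.428 CPM on ND and 11.7, 17.6, 26.5 and 17.1 CPM on CDAHFD. Its ND libraries were all at or under the floor and its CDAHFD libraries all above it by an order of magnitude or more (log2 change 5.39, SE 0.38, adjusted p = 1.74e-09). Slamf7, a leukocyte surface receptor, had 3 counts over the 4 ND libraries and 278 over the 4 CDAHFD libraries, a ratio of 89.3 (95% counting interval 30.2 to 436). Gpnmb, a glycoprotein of lipid-laden macrophages, had 2 counts on ND, both in replicate 4 and so 0 without it, against 10387 on CDAHFD, a ratio of 5005 (1385 to 41340).

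Among the genes with large falls were Hsd3b5, Mup7, Pitx3 and Elovl3. Pitx3 was too low on CDAHFD to pass the filter on low counts through these libraries, and its adjusted p is not read as support. Hsd3b5, a male-biased hydroxysteroid dehydrogenase, was at 343, 249.7, 284 and 211 CPM on ND and 26.6, 1.02, 1.03 and 1.74 CPM on CDAHFD. CDAHFD replicate 1 held most of what remained and the other CDAHFD libraries were close to the floor (log2 change −5.23, SE 0.62, adjusted p = 1.57e-06; −7.73 without CDAHFD replicate 1). Mup7, which encodes a major urinary protein, was at 5330, 2573, 4146 and 1008 CPM on ND and 449, 12.9, 26.5 and 30.7 CPM on CDAHFD. Again CDAHFD replicate 1 was the highest of its diet, and it was under every ND library (log2 change −4.66, SE 0.93, adjusted p = 0.000552; −7.10 without CDAHFD replicate 1). Pitx3, a homeobox transcription factor, was at 17.3, 36.2, 56.0 and 19.1 CPM on ND and 1.68, 0.204, 0.804 and 1.40 CPM on CDAHFD, with every CDAHFD library below every ND library (log2 change −4.97, SE 0.49, adjusted p = 1.14e-07). Elovl3, a fatty acid elongase, was at 320.3, 564, 857 and 252 CPM on ND and 29.4, 12.3, 15.3 and 8.19 CPM on CDAHFD. Its ND libraries were unequal, lowest in replicate 4, and all were far above the CDAHFD libraries (log2 change −4.94, SE 0.42, adjusted p = 1.88e-08).

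Genes of the extracellular matrix rose broadly. Among collagens and matrix proteins, 21 of 27 tested genes were called higher and 0 lower, with a median of 1.70. Of the 27, 5 passed through CDAHFD only, and of the other 22, 17 were called higher and 0 lower. Col1a1 (chr11:94936224-94953042, GRCm38.p6), the alpha 1 chain of type I collagen and the main fibrillar collagen of scar, was at 5.24, 2.11, 2.42 and 2.57 CPM on ND and 69.8, 57.4, 111 and 84.6 CPM on CDAHFD. Every CDAHFD library was above every ND library, and ND replicate 1 was the highest of the ND libraries (log2 change 4.73, SE 0.36, adjusted p = 4.39e-09). Col3a1, the type III collagen chain laid down beside it, was at 21.5, 17.2, 18.4 and 27.6 CPM on ND and 170.0, 171, 267 and 191 CPM on CDAHFD, with replicate 3 highest on CDAHFD (log2 change 3.25, SE 0.24, adjusted p = 2.81e-09). The summed level of this list moved much less, from between 2697 and 3699 CPM on ND to between 3585 and 4083 CPM on CDAHFD, and its most abundant gene was the hepatocyte-secreted fibronectin gene Fn1, chosen after its values were seen.

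Among matrix proteases, their inhibitors and lysyl oxidases, 9 of 20 tested genes (22 listed) passed through CDAHFD only, and of the other 11, 6 were called higher and 1 lower (8 higher and 0 lower with library-size scaling). Mmp12 and Timp1, given next, were too low on ND to pass the filter through these libraries. The adjusted p of Mmp12 is therefore not read as support. Mmp12, the macrophage elastase and the member with most counts, was at 0.181, 0.162, 0 and 0.856 CPM on ND and 139, 247, 281 and 206 CPM on CDAHFD, without overlap (log2 change 9.65, SE 0.43, adjusted p = 2.56e-12; 10.79 without ND replicate 4). Timp1, an inhibitor of matrix metalloproteases that is widely used as a marker of fibrosis, had 3 counts on ND, 2 of them in replicate 1 and 1 in replicate 2, and 115 on CDAHFD, a ratio of 36.9 (12.3 to 182). For the TGF-beta pathway, 10 of 21 tested genes were called higher and 0 lower, with a median of 0.73. Of the 21, 3 passed through CDAHFD only, and of the other 18, 9 were called higher and 0 lower. The ligand gene Tgfb1 was at 4.16, 4.54, 3.22 and 3.64 CPM on ND and 20.9, 19.8, 27.5 and 24.8 CPM on CDAHFD, so all CDAHFD libraries were several times above all ND libraries (log2 change 2.58, SE 0.22, adjusted p = 2.02e-08). The receptor gene Tgfbr1 moved less, from 28.2 to 51.2 CPM on ND to 52.9 to 60.7 CPM on CDAHFD (log2 change 0.63, adjusted p = 0.0106).

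Markers of hepatic stellate cells, the collagen-producing cells of the liver sinusoid, were followed as a list. In this list, 7 of 13 tested genes were called higher and 0 lower, with a median of 0.71 (11 higher, 0 lower and median 1.12 with library-size scaling). Of the 13, 1 passed through CDAHFD only, and of the other 12, 6 were called higher and 0 lower. The summed level of the list was 228, 184, 249 and 208 CPM on ND and 252, 303, 328 and 352 CPM on CDAHFD, the gene with most counts was Reln, chosen after its values were seen, and no member was at 0. Acta2, the smooth muscle actin of activated stellate cells, was at 1.45, 0.649, 0.134 and 0.642 CPM on ND and 8.19, 5.10, 6.89 and 4.88 CPM on CDAHFD. On ND it was too low to pass the filter through these libraries, and the adjusted p that follows is not read as support. Its ND libraries were at or near the floor except replicate 1, and all CDAHFD libraries were higher (log2 change 3.17, SE 0.50, adjusted p = 4.42e-05; 3.77 without ND replicate 1). In bulk liver, more cells of a type and more RNA per cell cannot be told apart, and what part the number of stellate cells had in the collagen changes was not tested.

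Among pan-macrophage markers, 4 of 14 tested genes passed through CDAHFD only, and of the other 10, 9 were called higher and 0 lower. Their summed level was 250.2, 261, 389 and 219.5 CPM on ND and 994, 1483, 1833 and 1553 CPM on CDAHFD, with Mpeg1, the perforin-2 gene chosen after its values were seen, as the member with most counts and no member at 0. CDAHFD replicate 1 was the lowest of its diet and still well above the highest ND library. Cd68, a lysosomal glycoprotein of phagocytes, was at 4.16, 2.92, 6.99 and 3.85 CPM on ND and 34.8, 63.3, 80.2 and 59.8 CPM on CDAHFD. ND replicate 3 was the highest ND library and lay far below CDAHFD replicate 1, the lowest on CDAHFD (log2 change 3.70, SE 0.27, adjusted p = 3.17e-09). Adgre1, which encodes the surface protein F4/80, was at 15.4, 15.7, 18.9 and 10.5 CPM on ND and 29.6, 70.6, 69.8 and 57.2 CPM on CDAHFD, without overlap and with the same libraries facing each other (log2 change 1.90, SE 0.25, adjusted p = 5.68e-06).

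Lipid-associated macrophages are the macrophages that gather around dying fat-laden cells. In this list, 11 of 14 tested genes (15 listed) were called higher and 1 lower, with a median of 3.17 (12 higher, 0 lower and median 3.57 with library-size scaling). Of the 14, 3 passed through CDAHFD only, and of the other 11, 8 were called higher and 1 lower. The summed level, 32130, 21620, 33280 and 19640 CPM on ND and 23570, 18120, 21440 and 21210 CPM on CDAHFD, overlapped between the diets, the gene with most counts was Apoe, which hepatocytes also express, and Trem2 was listed at 0 in all 32 libraries. Whether the annotation used for counting holds Trem2 is not stated, nor whether it holds Ly6g, Clec10a and Tnf, which were listed at 0 in the same way, so these values are not read as absence of expression. Lpl, lipoprotein lipase, was at 19.5, 38.1, 14.9 and 24.4 CPM on ND and 276, 518, 409 and 263 CPM on CDAHFD. Every CDAHFD library was above every ND library (log2 change 3.92, SE 0.28, adjusted p = 2.05e-09). Spp1, the osteopontin gene shared with the ductular list, was at 23.7, 9.24, 22.7 and 13.9 CPM on ND and 83.2, 89.6, 214 and 158 CPM on CDAHFD, with replicates 3 and 4 the highest on CDAHFD (log2 change 2.97, SE 0.36, adjusted p = 2.16e-06).

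Markers of resident Kupffer cells split in direction. In this list, 5 of 9 tested genes were called higher and 2 lower, with a median of 0.58, and the number higher was 3 without ND replicate 1, ND replicate 4 or CDAHFD replicate 2. Of the 9, 1 passed through CDAHFD only and 1 through ND only. Of the other 7, 4 were called higher and 1 lower. The summed level was 296, 318, 389.7 and 226 CPM on ND and 372, 754, 597 and 560.1 CPM on CDAHFD, with Cd5l, a secreted macrophage protein chosen after its values were seen, as the gene with most counts and no member at 0. Timd4, a phosphatidylserine receptor of long-lived Kupffer cells, was at 3.25, 4.87, 4.57 and 2.78 CPM on ND and 1.30, 1.43, 0.459 and 0.697 CPM on CDAHFD. All CDAHFD libraries were below all ND libraries (log2 change −2.07, SE 0.42, adjusted p = 0.000611). Cd163, the haemoglobin scavenger receptor, was at 14.8, 26.1, 17.5 and 17.1 CPM on ND and 5.58, 1.02, 0.919 and 2.27 CPM on CDAHFD, also lower without overlap (log2 change −3.0004, SE 0.46, adjusted p = 2.96e-05; −3.76 without CDAHFD replicate 1). Marco, a scavenger receptor for bacteria and particles, went the other way, at 2.71, 0.973, 2.82 and 1.29 CPM on ND and 24.4, 15.7, 17.2 and 9.94 CPM on CDAHFD (log2 change 3.07, SE 0.36, adjusted p = 1.35e-06). Clec4f, a lectin made by Kupffer cells, was at 69.6, 71.8, 113 and 54.0 CPM on ND and 61.4, 132, 105 and 98.7 CPM on CDAHFD and was not called (log2 change 0.36, adjusted p = 0.218), but was called without ND replicate 3 (0.61) or CDAHFD replicate 1 (0.55) and with library-size scaling (0.76).

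Other immune cells left few counts. Among neutrophil markers, 3 of 3 tested genes (10 listed) passed through CDAHFD only. The filter itself leans them to rises, and the adjusted p given below for Csf3r is not read as support. Their summed level was 0.723, 2.92, 1.48 and 2.14 CPM on ND and 7.45, 13.1, 16.7 and 14.6 CPM on CDAHFD, Csf3r had most counts and Ly6g, chosen after its values were seen, was listed at 0 in all 32 libraries. Csf3r, the receptor for granulocyte colony-stimulating factor, was at 0.361, 0.811, 0.403 and 1.07 CPM on ND and 4.10, 4.90, 7.24 and 7.15 CPM on CDAHFD, and all CDAHFD libraries were above all ND libraries (log2 change 3.18, SE 0.47, adjusted p = 1.87e-05). Among T cell markers, 2 of 2 tested genes (12 listed) passed through CDAHFD only. For the same reason the adjusted p of Thy1 is not read as support. Their sum was 6.68, 6.32, 3.22 and 4.07 CPM on ND and 5.77, 12.3, 8.84 and 14.1 CPM on CDAHFD, and the gene with most counts, Thy1, a surface glycoprotein that fibroblasts also make, was the one called (log2 change 1.67, adjusted p = 0.00785; 2.28 without ND replicate 1). Cd4, the helper T cell coreceptor, chosen after its values were seen, went the other way without overlap, from a mean of 1.95 CPM (SD 0.939, n = 4) on ND to 0.745 CPM (SD 0.290, n = 4) on CDAHFD, and was not tested. Among B and plasma cell markers, 2 of 4 tested genes (9 listed) passed through CDAHFD only, and the other 2 were not called, and their sum was 12.5, 8.92, 7.93 and 6.85 CPM on ND and 10.4, 16.1, 14.2 and 17.6 CPM on CDAHFD. Cd22, an inhibitory B cell receptor and the gene with most counts, was at 0.542 to 1.29 CPM on ND and 3.35 to 7.12 CPM on CDAHFD (log2 change 2.41, adjusted p = 2.18e-05). It passed through CDAHFD only. The other tested markers were not called and went both ways, with log2 changes of 1.26 for Cd79b, −0.25 for Ighm and −1.32 for Pax5.

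For dendritic cell markers, 3 of 4 tested genes (9 listed) passed through CDAHFD only, and the other was not called. Their sum was 9.57, 11.5, 7.12 and 7.07 CPM on ND and 8.94, 14.3, 16.1 and 18.0 CPM on CDAHFD, the gene with most counts was the transcription factor gene Zbtb46 and Clec10a was listed at 0 in all 32 libraries, both chosen after their values were seen. None of the 9 NK cell markers passed the filter on low counts, so there was no test of them. Their sum was 0.903, 1.78, 1.61 and 1.50 CPM on ND and 3.72, 6.13, 6.55 and 6.62 CPM on CDAHFD, so all ND libraries were below all CDAHFD libraries, with most counts on the granule protein gene Nkg7. The part that the numbers of these cells had in the rise of inflammatory genes was not tested.

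Endothelial markers did not move as a list. In this list, 3 of 14 tested genes were called higher and 3 lower, with a median of −0.089 (5 higher, 1 lower and median 0.31 with library-size scaling). Their sum was 301, 343, 377 and 284 CPM on ND and 255, 404, 322 and 359 CPM on CDAHFD, with overlapping diets, Stab2 as the gene with most counts and no member at 0. Stab2, a scavenger receptor of sinusoidal endothelium, was at 49.1, 60.0, 52.4 and 48.8 CPM on ND and 47.3, 70.2, 47.4 and 47.1 CPM on CDAHFD (log2 change 0.0064, adjusted p = 0.983). Cd34, a sialomucin of capillary endothelium and progenitor cells, was at 1.63, 1.30, 0.806 and 0.856 CPM on ND and 2.98, 3.88, 8.73 and 5.06 CPM on CDAHFD. No ND library reached any CDAHFD library, replicate 3 most of all (log2 change 2.20, SE 0.43, adjusted p = 0.000440). Cd34 was too low on ND to pass the filter through these libraries, so this p is not read as support. Flt1, a receptor for vascular endothelial growth factor, was at 6.14, 16.5, 9.40 and 12.2 CPM on ND and 3.35, 6.13, 4.82 and 3.66 CPM on CDAHFD, and the CDAHFD libraries lay just below the ND libraries (log2 change −1.30, SE 0.27, adjusted p = 0.000849).

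Ductular and progenitor markers were mostly higher. In this list, 7 of 13 tested genes (15 listed) passed through CDAHFD only, and of the other 6, 4 were called higher and 0 lower. Their sum was 442, 491, 413 and 486 CPM on ND and 1082, 1269, 1308 and 922 CPM on CDAHFD, without overlap, and the gene with most counts, the keratin gene Krt8, chosen after its values were seen, is also expressed by hepatocytes. Krt19, a keratin of cholangiocytes, was at 1.08, 0.649, 1.88 and 4.50 CPM on ND and 1.30, 1.02, 3.56 and 2.79 CPM on CDAHFD and was not called (log2 change 0.21, adjusted p = 0.827). No member was at 0.

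Among hepatocyte markers, 10 of 12 tested genes were called lower and 1 higher, with a median of −0.69 (4 lower, 2 higher and median −0.32 with library-size scaling). The summed level was 153900, 135600, 148100 and 153500 CPM on ND and 136300, 118600, 83690 and 94670 CPM on CDAHFD, with overlap between CDAHFD replicate 1 and ND replicate 2 and the lowest values in CDAHFD replicates 3 and 4. Serpinc1, the antithrombin gene, was at 2984, 3194, 2940 and 3392 CPM on ND and 2003, 1802, 1603 and 1628 CPM on CDAHFD. Every CDAHFD library was below every ND library (log2 change −0.83, SE 0.13, adjusted p = 4.09e-05). No hepatocyte marker was at 0, and what part the share of hepatocyte RNA had in the falls of metabolic genes was not tested.

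Among erythroid markers, 1 of 5 tested genes (7 listed) was called lower and 0 higher, with a median of −0.25 (1 lower, 0 higher and median 0.14 with library-size scaling), and their sum was 579, 633, 485 and 508 CPM on ND and 504, 416, 360.1 and 493 CPM on CDAHFD, with most counts on the globin gene Hbb-bs, at 122 to 179 CPM on ND and 107 to 144 CPM on CDAHFD. Alas2, the erythroid heme synthesis enzyme and the member called, was at 127, 143, 136 and 113 CPM on ND and 104, 67.0, 59.8 and 73.2 CPM on CDAHFD, without overlap (log2 change −0.77, SE 0.16, adjusted p = 0.000741). Among markers of pancreas, adipose tissue, muscle and mesothelium, 1 of 4 tested genes (17 listed) passed through ND only, and the other 3 were not called, and 9 of the 17 were at 0 in all 8 libraries. Their sum was 16.3, 7.46, 12.2 and 10.7 CPM on ND and 9.68, 3.47, 5.05 and 7.67 CPM on CDAHFD, highest in ND replicate 1, with most counts on the mesothelial gene Upk3b, chosen after its values were seen.

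Among chemokines and their receptors, 13 of 19 tested genes (30 listed) passed through CDAHFD only, and of the other 6, 4 were called higher and 1 lower (5 higher and 0 lower with library-size scaling). Ccl2 and Ccl3, given next, were too low on ND to pass the filter through these libraries. The adjusted p of Ccl2 is therefore not read as support. Ccl2, which attracts monocytes, was at 0, 0.324, 1.08 and 0.214 CPM on ND and 4.28, 6.94, 4.82 and 6.45 CPM on CDAHFD. The ND libraries were at or under the floor except replicate 3, and all CDAHFD libraries were several times higher (log2 change 3.58, SE 0.54, adjusted p = 2.18e-05; 4.80 without ND replicate 3). Ccl3, another ligand for monocytes and T cells, had 0 counts in all ND libraries and 36 over the CDAHFD libraries, at least 11.6-fold higher against a floor of 3 counts over the group. Cxcl12, the chemokine gene with most counts, fell without overlap, at 291 to 358 CPM on ND and 178 to 212 CPM on CDAHFD (log2 change −0.69, adjusted p = 0.000179; −0.30 and not called with library-size scaling), and the summed level of the list was 403, 396, 438 and 458 CPM on ND and 419, 461, 472 and 481 CPM on CDAHFD.

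Among interleukins and the TNF superfamily, 7 of 18 tested genes (28 listed) passed through CDAHFD only, and of the other 11, 7 were called higher and 1 lower (7 higher and 0 lower with library-size scaling), and Tnf itself was listed at 0 in all 32 libraries. Il1rn, the natural antagonist of the interleukin-1 receptor, was at 0.903, 1.95, 2.15 and 0.428 CPM on ND and 16.2, 30.4, 24.9 and 35.9 CPM on CDAHFD, with every CDAHFD library above every ND library (log2 change 4.20, SE 0.33, adjusted p = 6.18e-09). Among toll-like receptors and their adaptors, 10 of 20 tested genes passed through CDAHFD only, and of the other 10, 3 were called higher and 1 lower (6 higher and 0 lower with library-size scaling). Tlr2, a receptor for bacterial lipoproteins, was at 1.45, 0.811, 1.88 and 2.36 CPM on ND and 9.12, 18.2, 13.6 and 13.8 CPM on CDAHFD (log2 change 3.07, SE 0.38, adjusted p = 2.54e-06). Tlr4, the receptor for lipopolysaccharide, was at 1.45, 3.73, 1.88 and 2.14 CPM on ND and 7.07, 14.5, 11.3 and 10.8 CPM on CDAHFD (log2 change 2.23, SE 0.30, adjusted p = 5.39e-06). In neither gene did the diets overlap, and CDAHFD replicate 1 was the lowest of its diet in both.

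Among MHC class II genes, 3 of 9 tested genes (12 listed) passed through CDAHFD only, and of the other 6, 6 were called higher and 0 lower. Cd74, the invariant chain that guides class II molecules, was at 57.4, 25.0, 55.3 and 37.0 CPM on ND and 106, 216, 269 and 266 CPM on CDAHFD. CDAHFD replicate 1 was again the lowest of its diet and above every ND library (log2 change 2.29, SE 0.26, adjusted p = 8.77e-07). Ctss, the protease that cleaves the invariant chain, was at 18.6, 9.08, 23.8 and 9.64 CPM on ND and 164, 225, 331 and 245 CPM on CDAHFD, without overlap (log2 change 3.96, SE 0.30, adjusted p = 4.02e-09). Among interferon response genes, 13 of 21 tested genes were called higher and 0 lower, with a median of 0.77. Oas1a, an antiviral synthetase of a family of near-identical paralogs, was at 4.34, 2.43, 1.88 and 1.50 CPM on ND and 12.3, 13.9, 16.9 and 14.8 CPM on CDAHFD. Every CDAHFD value exceeded every ND value (log2 change 2.51, SE 0.25, adjusted p = 1.21e-07). Ifit1, a classical type I interferon target, was at 15.9, 11.4, 8.19 and 11.99 CPM on ND and 14.5, 15.3, 11.5 and 11.2 CPM on CDAHFD, with overlap, and was not called (log2 change 0.15, adjusted p = 0.721).

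Secreted plasma proteins did not share a direction. Among acute phase proteins, 10 of 18 tested genes were called higher and 4 lower, with a median of 0.78. Saa1, serum amyloid A1, whose reads can be shared with its paralog, was at 23.3, 24.5, 36.0 and 16.3 CPM on ND and 327, 169, 187 and 137 CPM on CDAHFD. CDAHFD replicate 1 was the highest of all and every CDAHFD library was above every ND library (log2 change 3.02, SE 0.28, adjusted p = 6.55e-08). Fgb, the fibrinogen beta chain, fell in the same list, at 5136, 6602, 5475 and 5504 CPM on ND and 3597, 3063, 2531 and 2129 CPM on CDAHFD (log2 change −1.01, SE 0.17, adjusted p = 7.28e-05). Among complement and coagulation factors, 17 of 32 tested genes (33 listed) were called lower and 0 higher, with a median of −0.39 (8 lower, 5 higher and median −0.012 with library-size scaling). Mbl2, the mannose-binding lectin that starts the lectin pathway, was at 377, 334, 374 and 378 CPM on ND and 157, 179, 123 and 107 CPM on CDAHFD, with all CDAHFD libraries well below all ND libraries (log2 change −1.37, SE 0.18, adjusted p = 3.98e-06). C3, the central complement component, was at 9967, 13550, 10570 and 16410 CPM on ND and 13690, 17710, 13390 and 12200 CPM on CDAHFD and was not called (log2 change 0.17, adjusted p = 0.519), while library-size scaling called it higher (0.56).

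Among genes of de novo lipogenesis and desaturation, 18 of 23 tested genes (25 listed) were called lower and 2 higher, with a median of −1.09. Their summed level was 15620, 31080, 22550 and 24300 CPM on ND and 4698, 4614, 3765 and 3974 CPM on CDAHFD, without overlap. Scd1, the stearoyl-CoA desaturase and the gene with most counts, was at 10220, 20740, 15310 and 16040 CPM on ND and 395, 398, 60.1 and 33.3 CPM on CDAHFD. Within CDAHFD, replicates 3 and 4 were well below replicates 1 and 2 for Scd1 (log2 change −6.14, SE 0.69, adjusted p = 7.06e-07), and reads can be shared with its paralogs. Fasn, the fatty acid synthase, was at 471, 1652, 659.6 and 1075 CPM on ND and 266, 229, 213 and 216 CPM on CDAHFD. The ND libraries spread widely, with replicate 1 the lowest, and the CDAHFD libraries lay close together below them (log2 change −2.06, SE 0.26, adjusted p = 3.38e-06). Fads2, the delta-6 desaturase of polyunsaturated fatty acids, went against the list, at 337, 453, 363 and 508 CPM on ND and 672, 735, 679.5 and 734 CPM on CDAHFD (log2 change 0.76, SE 0.15, adjusted p = 0.000342).

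Among genes of cholesterol synthesis and uptake, 13 of 25 tested genes were called lower and 1 higher, with a median of −0.51 (6 lower, 4 higher and median −0.13 with library-size scaling). Tm7sf2, a sterol reductase of the synthesis pathway, was at 205, 282, 250.0 and 242 CPM on ND and 94.0, 63.3, 67.1 and 68.7 CPM on CDAHFD. All CDAHFD libraries were below all ND libraries, with replicate 1 the nearest (log2 change −1.74, SE 0.14, adjusted p = 8.59e-09). Among cholesterol efflux genes and LXR targets, 3 of 13 tested genes were called higher and 3 lower, with a median of −0.061 (7 higher, 0 lower and median 0.34 with library-size scaling). Abcg1, a sterol exporter of macrophages, was at 6.86, 7.62, 4.03 and 7.71 CPM on ND and 24.2, 46.1, 43.2 and 33.8 CPM on CDAHFD (log2 change 2.51, SE 0.24, adjusted p = 9.55e-08). Soat1, which esterifies cholesterol for storage in foam cells, was at 3.07, 2.27, 2.82 and 2.78 CPM on ND and 19.7, 32.3, 32.3 and 28.6 CPM on CDAHFD. In neither Abcg1 nor Soat1 did the diets overlap (log2 change 3.36, SE 0.28, adjusted p = 1.52e-08 for Soat1).

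Bile acid genes were mostly lower. Among genes of bile acid synthesis and transport, 12 of 21 tested genes were called lower and 2 higher, with a median of −0.53. Cyp27a1, which starts the acidic route of synthesis, was at 544, 463, 527 and 529 CPM on ND and 254, 212, 205 and 246 CPM on CDAHFD. The CDAHFD libraries were all below the ND libraries and close to each other (log2 change −1.17, SE 0.11, adjusted p = 9.29e-08). Cyp7a1, which starts the classical route, was at 143, 117, 63.3 and 122 CPM on ND and 236, 199, 53.4 and 88.6 CPM on CDAHFD, with overlap, and was not called (log2 change 0.37, adjusted p = 0.435). Abcb11, the canalicular bile salt export pump, was at 921 to 1420 CPM on ND and 611 to 755 CPM on CDAHFD (log2 change −0.74, adjusted p = 0.000189). Slco1a1, a sinusoidal uptake transporter higher in males, was at 794, 705, 797 and 791 CPM on ND and 333, 102, 108 and 92.7 CPM on CDAHFD, with CDAHFD replicate 1 the highest of its diet (log2 change −2.28, SE 0.36, adjusted p = 5.01e-05; −2.92 without CDAHFD replicate 1).

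Fat burning, storage and uptake gave mixed lists. Among genes of fatty acid oxidation and ketogenesis, 10 of 28 tested genes were called lower and 3 higher, with a median of −0.14 (4 lower, 8 higher and median 0.26 with library-size scaling). Cpt1a, the carnitine transferase that admits fatty acids to mitochondria, was at 486, 351, 386 and 489 CPM on ND and 596, 752, 585 and 695 CPM on CDAHFD. The diets were apart in every library (log2 change 0.62, SE 0.15, adjusted p = 0.00273). The paralogs Acot1 and Acot2, cytosolic and mitochondrial acyl-CoA thioesterases, went apart. Acot1 was at 19.6 to 39.9 CPM on ND and 3.91 to 13.7 CPM on CDAHFD (log2 change −1.81, adjusted p = 0.000117). Acot2 was at 8.49 to 12.3 CPM on ND and 10.4 to 31.6 CPM on CDAHFD, with overlap (log2 change 1.24, adjusted p = 0.00452).

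Among lipid droplet proteins and lipases, 5 of 21 tested genes (22 listed) were called higher and 4 lower, with a median of −0.16 (9 higher, 3 lower and median 0.24 with library-size scaling). Cidec, which helps lipid droplets fuse, was at 3.97, 1.46, 1.34 and 1.93 CPM on ND and 15.1, 19.6, 31.6 and 18.7 CPM on CDAHFD. Every CDAHFD library was above every ND library (log2 change 3.33, SE 0.47, adjusted p = 1.28e-05). Ces1d, a carboxylesterase that hydrolyses stored triglyceride, was at 836, 1344, 865 and 939 CPM on ND and 169, 157, 129 and 127 CPM on CDAHFD. Here the CDAHFD libraries were all at 169 CPM or less and the ND libraries all at 836 CPM or more (log2 change −2.78, SE 0.20, adjusted p = 2.81e-09). Among genes of fatty acid uptake and lipoproteins, 11 of 28 tested genes (29 listed) were called lower and 6 higher, with a median of −0.28 (5 lower, 7 higher and median 0.10 with library-size scaling). Cd36, a fatty acid transporter and scavenger receptor, was at 40.5, 45.1, 54.8 and 30.0 CPM on ND and 181, 317, 349.6 and 311 CPM on CDAHFD, with CDAHFD replicate 1 the lowest of its diet (log2 change 2.76, SE 0.27, adjusted p = 1.18e-07). Mttp, which loads triglyceride onto apolipoprotein B, was at 396, 436, 407 and 477 CPM on ND and 264, 276, 239 and 201 CPM on CDAHFD (log2 change −0.81, SE 0.12, adjusted p = 2.27e-05).

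The diet lacks choline and holds little methionine. Among genes of choline, methionine and one-carbon metabolism, 15 of 27 tested genes (28 listed) were called lower and 2 higher, with a median of −0.42 (8 lower, 4 higher and median −0.038 with library-size scaling). Mat2a, the methionine adenosyltransferase of non-hepatocyte and growing cells, was at 13.4, 11.7, 12.5 and 12.6 CPM on ND and 58.8, 49.4, 54.7 and 50.2 CPM on CDAHFD. The 4 libraries of each diet were close together and far from those of the other (log2 change 2.09, SE 0.16, adjusted p = 4.81e-09). Gnmt, which uses up methyl groups in hepatocytes, was at 2234, 2031, 2330 and 2408 CPM on ND and 1099, 747, 709 and 678 CPM on CDAHFD, with CDAHFD replicate 1 the highest of its diet (log2 change −1.48, SE 0.15, adjusted p = 2.86e-07). Pemt, which makes phosphatidylcholine by methylation, was at 343, 241, 404 and 258 CPM on ND and 330.4, 256, 260.2 and 321 CPM on CDAHFD, with overlap, and was not called (log2 change −0.10, adjusted p = 0.691). Bhmt, which remethylates homocysteine with betaine, was at 1894, 1788, 1564 and 1726 CPM on ND and 2357, 1672, 1144 and 783 CPM on CDAHFD. The CDAHFD libraries lay on both sides of the ND range, and Bhmt was not called (log2 change −0.23, adjusted p = 0.548). Chpt1, the last step of phosphatidylcholine synthesis from choline, was at 231 to 257 CPM on ND and 119 to 194 CPM on CDAHFD (log2 change −0.77, adjusted p = 0.000320).

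Genes of glucose use turned in both directions. Among glucose, glycogen and pentose phosphate enzymes, 12 of 27 tested genes were called lower and 7 higher, with a median of −0.11 (7 lower, 11 higher and median 0.28 with library-size scaling). Pkm, the pyruvate kinase of proliferating and non-hepatocyte cells, was at 18.8, 9.89, 17.7 and 16.1 CPM on ND and 79.1, 121, 147 and 99.9 CPM on CDAHFD, all CDAHFD libraries being above all ND libraries (log2 change 2.84, SE 0.22, adjusted p = 5.85e-09). G6pc, the glucose-6-phosphatase that releases glucose, was at 381, 289.9, 356 and 343 CPM on ND and 196, 115, 157 and 158 CPM on CDAHFD (log2 change −1.13, SE 0.25, adjusted p = 0.00143). It fell without overlap, with CDAHFD replicate 1 the highest of its diet. Ppp1r3b, which targets protein phosphatase 1 to glycogen, was at 143, 387, 161 and 246 CPM on ND and 51.8, 37.4, 44.7 and 48.3 CPM on CDAHFD. The ND libraries spread widely and stood above the narrow CDAHFD group (log2 change −2.36, SE 0.28, adjusted p = 1.31e-06).

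Among genes of the urea cycle and amino acid catabolism, 18 of 27 tested genes (28 listed) were called lower and 0 higher, with a median of −0.53 (6 lower, 2 higher and median −0.15 with library-size scaling). Among respiratory chain subunits, 19 of 27 tested genes (29 listed) were called lower and 0 higher, with a median of −0.41 (1 lower, 0 higher and median −0.025 with library-size scaling). The number lower was 12 without ND replicate 3 or CDAHFD replicate 2. Sdhb, the iron-sulfur subunit of complex II, was at 225, 301, 297 and 264 CPM on ND and 172, 134, 158 and 146 CPM on CDAHFD. All CDAHFD libraries were below all ND libraries (log2 change −0.83, SE 0.13, adjusted p = 2.71e-05). Cox4i1, a subunit of cytochrome c oxidase, was at 491, 245, 456 and 304 CPM on ND and 357, 243, 318 and 342 CPM on CDAHFD and was not called (log2 change −0.25, adjusted p = 0.299).

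Among cytochrome P450 genes of families 1 to 3, 26 of 40 tested genes (48 listed) were called lower and 4 higher, with a median of −0.77. Of the 40, 3 passed through CDAHFD only and 3 through ND only, and of the other 34, 23 were called lower and 2 higher. Cyp3a11, a major drug-oxidizing enzyme with close paralogs, was at 4980, 3695, 5465 and 4464 CPM on ND and 1932, 2338, 2544 and 3008 CPM on CDAHFD. CDAHFD replicate 4 was the highest of its diet and under the lowest ND library (log2 change −0.92, SE 0.17, adjusted p = 0.000327). Cyp2e1, the pericentral ethanol-oxidizing enzyme, was at 7450, 5241, 6319 and 5520 CPM on ND and 5650, 4479, 4813 and 5438 CPM on CDAHFD and was not called (log2 change −0.27, adjusted p = 0.229). Cyp2b10, the inducible member of the deleted family, was at 5.96, 14.4, 13.0 and 10.7 CPM on ND and 0, 0.613, 0.574 and 1.22 CPM on CDAHFD, falling to near the floor (log2 change −4.15, SE 0.54, adjusted p = 4.41e-06). Cyp2b9, its female-biased neighbour, was at 0, 1.14, 0.537 and 3.21 CPM on ND and 67.8, 56.6, 13.6 and 46.7 CPM on CDAHFD. It rose in every CDAHFD library, least in replicate 3 (log2 change 5.34, SE 0.52, adjusted p = 1.18e-07; 6.27 without ND replicate 4), and reads of this family can be split among its members.

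Cyp2b13, the remaining deleted gene, had 0 counts on ND and 12 over the CDAHFD libraries, at least 3.86-fold higher against 3 counts over the group, and did not pass the filter for a test. Among conjugating enzymes, 20 of 41 tested genes (44 listed) were called lower and 4 higher, with a median of −0.38 (11 lower, 7 higher and median 0.014 with library-size scaling). Ugt2b1, a glucuronosyltransferase, was at 680.3, 625, 692 and 513 CPM on ND and 353, 186, 179 and 192 CPM on CDAHFD (log2 change −1.46, SE 0.20, adjusted p = 6.10e-06). Ugt1a5, of a locus whose transcripts share exons, was at 36.7, 54.2, 39.8 and 46.3 CPM on ND and 12.3, 10.2, 7.12 and 8.72 CPM on CDAHFD (log2 change −2.22, SE 0.18, adjusted p = 1.38e-08). Both fell without overlap. Gstm1, a glutathione transferase, was at 330.2 to 725 CPM on ND and 398 to 619 CPM on CDAHFD and was not called (log2 change −0.0069, adjusted p = 0.985). Among NRF2 target genes, 11 of 19 tested genes (20 listed) were called higher and 1 lower, with a median of 0.60 (14 higher, 0 lower and median 0.998 with library-size scaling). Of the 19, 4 passed through CDAHFD only, and of the other 15, 7 were called higher and 1 lower. Slc7a11, the cystine transporter that feeds glutathione synthesis, was at 0, 0.324, 0.269 and 0.428 CPM on ND and 4.10, 6.33, 7.35 and 5.93 CPM on CDAHFD. Its ND libraries were all under the floor and its CDAHFD libraries all above it (log2 change 4.47, SE 0.46, adjusted p = 1.75e-07). Since Slc7a11 was too low on ND to pass the filter through these libraries, this p is not read as support. Nqo1, a quinone reductase, was at 6.86, 4.87, 6.31 and 6.64 CPM on ND and 11.9, 15.1, 14.8 and 16.6 CPM on CDAHFD (log2 change 1.25, SE 0.23, adjusted p = 0.000245). Gclc, the catalytic subunit of glutamate-cysteine ligase, was at 314 to 439 CPM on ND and 248 to 388 CPM on CDAHFD and was not called (log2 change −0.12, adjusted p = 0.606).

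Genes that mark male liver had the lowest median of the 55 lists. Among male-biased liver genes, 23 of 26 tested genes (28 listed) were called lower and 0 higher, with a median of −2.33. The diets did not overlap for 21 of the 26, against 28.4% of all genes tested. Of the 26, 2 passed through ND only, and of the other 24, 22 were called lower and 0 higher. The summed level of the list was 35710, 20290, 29310 and 15450 CPM on ND and 9854, 3031, 3138 and 2470 CPM on CDAHFD, with most counts on Serpina1e, of a multigene family and chosen after its values were seen. Among the CDAHFD libraries replicate 1 was the highest, and on ND replicate 4 the lowest, but the diets did not overlap. Mup20, which encodes the male pheromone darcin, was an exception, at 2577, 661, 2063 and 634 CPM on ND and 1076, 679.8, 1247 and 939 CPM on CDAHFD, and was not called (log2 change −0.59, adjusted p = 0.204), but was called lower with no filter on low counts (−0.60). Among female-biased liver genes, 5 of 16 tested genes (27 listed) passed through CDAHFD only and 1 through ND only, and of the other 10, 3 were called higher and 1 lower. Cyp17a1, a steroid hydroxylase, was the member that fell most, at 3.25, 8.59, 4.57 and 14.6 CPM on ND and 2.42, 2.45, 1.72 and 1.92 CPM on CDAHFD, without overlap (log2 change −1.85, SE 0.43, adjusted p = 0.00184). Cyp2b9, described above, is in the same list and went the other way (log2 change 5.34).

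The growth hormone axis is known for setting this sex bias. Among genes of growth hormone, STAT5 and IGF, 5 of 19 tested genes (20 listed) were called lower and 3 higher, with a median of −0.12 (4 lower, 6 higher and median 0.30 with library-size scaling). Ghr, the growth hormone receptor, was at 854, 769, 785 and 797 CPM on ND and 563, 395, 314 and 293 CPM on CDAHFD. The ND libraries were close together and all CDAHFD libraries lay below them (log2 change −1.03, SE 0.17, adjusted p = 6.31e-05). Igf1, the circulating growth factor made on its signal, was at 817, 812, 578 and 919 CPM on ND and 520.1, 449, 362 and 316 CPM on CDAHFD, with ND replicate 3 just above CDAHFD replicate 1 (log2 change −0.92, SE 0.17, adjusted p = 0.000251). Igfbp1, the member that rose most, was at 27.4 to 126 CPM on ND and 115 to 142 CPM on CDAHFD (log2 change 0.92, adjusted p = 0.0266), and was not called with DESeq2 or when 1 of 6 of the 8 libraries, each in turn, was left out. Among nuclear receptors and liver transcription factors, 10 of 26 tested genes were called lower and 1 higher, with a median of −0.41 (2 lower, 4 higher and median −0.016 with library-size scaling). Thrb, the thyroid hormone receptor of liver, was at 55.5, 73.5, 52.9 and 88.4 CPM on ND and 31.3, 35.7, 26.2 and 34.7 CPM on CDAHFD, without overlap (log2 change −1.08, SE 0.17, adjusted p = 5.26e-05). Ppara, the receptor that drives fatty acid oxidation, was at 277 to 327 CPM on ND and 215 to 348 CPM on CDAHFD and was not called (log2 change −0.074, adjusted p = 0.756). Nr1i3, the xenobiotic receptor CAR, was at 38.6 to 88.7 CPM on ND and 39.8 to 74.4 CPM on CDAHFD and was not called either (log2 change −0.33, adjusted p = 0.319).

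Hepatocytes near the central vein and near the portal vein express different genes. Among pericentral genes and Wnt targets, 8 of 19 tested genes were called higher and 2 lower, with a median of 0.25. Glul, the glutamine synthetase of the innermost pericentral layer, was at 1100, 877, 807 and 824 CPM on ND and 1795, 1747, 2062 and 1649 CPM on CDAHFD. No ND library reached any CDAHFD library (log2 change 1.01, SE 0.13, adjusted p = 5.33e-06). Axin2, a direct Wnt target, was at 3.97, 5.03, 5.11 and 4.28 CPM on ND and 11.5, 8.78, 9.88 and 8.54 CPM on CDAHFD (log2 change 1.06, SE 0.22, adjusted p = 0.000728). Rhbg, an ammonium transporter of the same layer, was at 6.68, 5.68, 6.58 and 8.78 CPM on ND and 53.1, 31.0, 45.6 and 26.5 CPM on CDAHFD (log2 change 2.51, SE 0.24, adjusted p = 8.32e-08). Both were higher in every CDAHFD library than in any ND library. Among periportal genes, 9 of 15 tested genes were called lower and 4 higher, with a median of −0.62 (5 lower, 4 higher and median −0.23 with library-size scaling). Cyp2f2, a periportal P450, was at 1149, 981, 1171 and 1069 CPM on ND and 889, 549.6, 438 and 526 CPM on CDAHFD, with CDAHFD replicate 1 the nearest to ND (log2 change −0.86, SE 0.17, adjusted p = 0.000531).

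Stress pathways went separate ways. Among ER chaperones and genes of the unfolded protein response, 12 of 24 tested genes were called lower and 1 higher, with a median of −0.47 (6 lower, 3 higher and median −0.10 with library-size scaling). Hspa5, the chaperone BiP, was at 1865, 1449, 1612 and 2610 CPM on ND and 979, 861, 869 and 571 CPM on CDAHFD. CDAHFD replicate 4 was the lowest and no CDAHFD library reached the ND range (log2 change −1.20, SE 0.24, adjusted p = 0.000529). Among genes of the integrated stress response, 6 of 20 tested genes (23 listed) passed through CDAHFD only, and of the other 14, 7 were called higher and 0 lower. Fgf21, a hormone secreted by stressed hepatocytes, was at 0.903, 0.324, 1.21 and 2.14 CPM on ND and 12.7, 6.33, 10.2 and 4.88 CPM on CDAHFD. All CDAHFD libraries were above all ND libraries, replicates 1 and 3 most (log2 change 2.94, SE 0.70, adjusted p = 0.00253). Atf3, a transcription factor of the response, was at 0.903, 0.324, 0.537 and 0 CPM on ND and 16.2, 27.4, 31.9 and 20.1 CPM on CDAHFD (log2 change 5.65, SE 0.41, adjusted p = 2.81e-09). As Atf3 was too low on ND to pass the filter through these libraries, this p is not read as support. Atf4, its upstream factor, which is controlled largely by translation, was at 72.3, 52.2, 85.8 and 58.7 CPM on ND and 76.7, 56.1, 64.3 and 47.6 CPM on CDAHFD and was not called (log2 change −0.14, adjusted p = 0.607). Of these, Fgf21 and Atf3 did not overlap between the diets.

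Promoters of the list were searched for the C/EBP-ATF element TGATGNAA, on both strands, in 300 bases from 250 before to 50 after each RefSeq gene start (GRCm38.p6). It was found in 7 of 20 genes of the list with a promoter in the table (35.0%) and in 4.51% of all 27025 promoters, and all 7 genes were among the 12 called higher. Those of genes described here are printed, all on the minus strand, with the element in capitals: Atf3 at chr1:191183284-191183583, first match 110 bases before the start, Fgf21 at chr7:45615441-45615740, first match 139 bases before it and Slc7a11 at chr3:50443564-50443863, 2 matches, the first 66 bases before it. The 12 genes called higher include genes that passed the filter on low counts through CDAHFD only, as 6 of the 20 tested did. A match is a description of these letters and not of binding.
Atf3: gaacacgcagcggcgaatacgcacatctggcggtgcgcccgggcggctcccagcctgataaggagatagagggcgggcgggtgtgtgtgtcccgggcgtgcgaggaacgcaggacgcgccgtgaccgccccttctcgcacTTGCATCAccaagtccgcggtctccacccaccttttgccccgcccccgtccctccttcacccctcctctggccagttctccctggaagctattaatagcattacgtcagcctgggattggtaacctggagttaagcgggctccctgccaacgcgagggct
Fgf21: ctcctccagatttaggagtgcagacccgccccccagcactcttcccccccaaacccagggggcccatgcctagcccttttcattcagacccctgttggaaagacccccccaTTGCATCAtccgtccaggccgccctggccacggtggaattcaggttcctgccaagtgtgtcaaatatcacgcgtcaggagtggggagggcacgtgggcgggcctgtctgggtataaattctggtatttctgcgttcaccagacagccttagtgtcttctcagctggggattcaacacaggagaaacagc
Slc7a11: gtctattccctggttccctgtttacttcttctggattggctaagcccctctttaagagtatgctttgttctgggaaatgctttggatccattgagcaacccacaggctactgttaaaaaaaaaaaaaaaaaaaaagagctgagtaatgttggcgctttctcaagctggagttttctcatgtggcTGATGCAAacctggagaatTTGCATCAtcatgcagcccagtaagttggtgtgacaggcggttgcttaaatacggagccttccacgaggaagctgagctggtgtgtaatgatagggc

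Among p53 target genes, 6 of 18 tested genes passed through CDAHFD only, and of the other 12, 5 were called higher and 1 lower (8 higher and 0 lower with library-size scaling). Cdkn1a, the cell cycle inhibitor p21, was at 1.99, 2.92, 1.08 and 1.07 CPM on ND and 11.7, 25.1, 23.8 and 10.3 CPM on CDAHFD, with CDAHFD replicates 2 and 3 the highest and no overlap (log2 change 3.32, SE 0.41, adjusted p = 2.16e-06). Among cell death genes, 8 of 23 tested genes passed through CDAHFD only, and of the other 15, 6 were called higher and 2 lower (11 higher and 0 lower with library-size scaling). Bcl2a1b, an anti-apoptotic gene of leukocytes with near-identical copies, was at 0.542, 0.487, 0.269 and 0.428 CPM on ND and 7.45, 14.1, 16.7 and 14.0 CPM on CDAHFD, without overlap (log2 change 4.90, SE 0.43, adjusted p = 2.72e-08). This p is not read as support, as Bcl2a1b was too low on ND to pass the filter through these libraries. Gsdmd, the pore-forming gasdermin of pyroptosis, was at 23.1 to 26.6 CPM on ND and 19.9 to 25.9 CPM on CDAHFD and was not called (log2 change −0.093, adjusted p = 0.650). Among cell cycle genes, 14 of 30 tested genes (31 listed) passed through CDAHFD only, and of the other 16, 10 were called higher and 0 lower. Mki67, the proliferation marker Ki-67, was at 2.35, 3.89, 2.42 and 3.85 CPM on ND and 24.2, 33.1, 25.6 and 16.4 CPM on CDAHFD. CDAHFD replicate 2 was the highest, and replicate 4 the lowest of its diet but above every ND library (log2 change 2.996, SE 0.23, adjusted p = 5.93e-09). Ccnd1, cyclin D1, which drives entry into S phase, was at 69.7, 25.1, 31.6 and 36.8 CPM on ND and 217, 242, 256 and 258 CPM on CDAHFD (log2 change 2.58, SE 0.22, adjusted p = 2.10e-08).

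In the same promoter windows, the CCAAT box was found in 20 of 23 cell cycle genes (87.0%) against 41.1% of all promoters, and in 16 of the 17 called higher. The 17 include genes that passed the filter on low counts through CDAHFD only, as 14 of the 30 tested did. The interferon-stimulated element, TTTC, any 2 bases and TTTC, was found in 10 of 17 interferon response genes (58.8%) against 3.99%, and in 6 of the 10 called higher. The sterol element TCACNCCAC was found in 1 of 17 genes of cholesterol synthesis (5.88% against 1.44%) and the direct repeat, AGGTCA, any 1 base and AGGTCA, in 0 of 22 genes of fatty acid oxidation (0.0481% of all promoters). Both strands were searched. The promoters of Oas1a (chr5:120907476-120907775, minus strand, 2 matches, the first 20 bases before the start) and Mki67 (chr7:135716330-135716629, minus strand, 3 matches, the first 188 bases before the start) are printed from RefSeq (GRCm38.p6) as examples of genes that rose, with the elements in capitals.
Oas1a: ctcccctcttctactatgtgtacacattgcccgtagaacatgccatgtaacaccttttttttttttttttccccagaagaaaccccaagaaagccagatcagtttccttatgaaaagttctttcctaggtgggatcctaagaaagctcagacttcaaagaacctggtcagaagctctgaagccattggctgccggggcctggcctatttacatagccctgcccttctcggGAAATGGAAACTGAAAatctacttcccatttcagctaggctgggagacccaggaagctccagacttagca
Mki67: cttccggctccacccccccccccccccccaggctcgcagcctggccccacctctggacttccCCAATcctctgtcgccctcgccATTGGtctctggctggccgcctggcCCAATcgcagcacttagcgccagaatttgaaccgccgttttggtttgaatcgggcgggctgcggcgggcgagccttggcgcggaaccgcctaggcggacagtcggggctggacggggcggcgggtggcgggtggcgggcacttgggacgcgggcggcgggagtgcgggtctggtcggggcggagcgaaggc

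Lysosomal and membrane-binding proteins rose in most members. Among lysosomal genes, 21 of 28 tested genes were called higher and 1 lower, with a median of 0.78 (26 higher, 0 lower and median 1.18 with library-size scaling). Ctsd, the aspartic protease cathepsin D, was at 352, 361, 426 and 319.9 CPM on ND and 739.9, 918, 1236 and 933 CPM on CDAHFD. All CDAHFD libraries were above all ND libraries (log2 change 1.39, SE 0.16, adjusted p = 8.26e-07). Cd63, a tetraspanin of late endosomes, was at 0.428 to 3.25 CPM on ND and 22.0 to 53.6 CPM on CDAHFD (log2 change 4.11, adjusted p = 1.78e-08). Among annexins and S100 proteins, 5 of 16 tested genes (18 listed) passed through CDAHFD only, and of the other 11, 7 were called higher and 2 lower (9 higher and 0 lower with library-size scaling). Anxa2, a calcium-dependent membrane-binding protein, was at 9.75, 6.97, 10.6 and 5.78 CPM on ND and 112, 164, 177 and 126 CPM on CDAHFD, with the diets more than an order of magnitude apart (log2 change 4.11, SE 0.23, adjusted p = 5.38e-11).

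Among genes of iron storage, transport and hepcidin, 6 of 17 tested genes were called higher and 3 lower, with a median of 0.30 (11 higher, 2 lower and median 0.67 with library-size scaling), and the number higher was 3 without ND replicate 1, ND replicate 4 or CDAHFD replicate 2. Among alcohol dehydrogenases and genes of retinoid metabolism, 12 of 20 tested genes (21 listed) were called lower and 3 higher, with a median of −0.47 (5 lower, 4 higher and median −0.088 with library-size scaling). Cyp26b1, which degrades retinoic acid, was at 3.07, 24.2, 35.1 and 21.2 CPM on ND and 3.54, 2.86, 5.28 and 7.15 CPM on CDAHFD, where ND replicate 1 lay within the CDAHFD range and the other ND libraries above it (log2 change −2.14, SE 0.49, adjusted p = 0.00193).

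Among circadian clock genes, 5 of 17 tested genes (18 listed) were called lower and 2 higher, with a median of 0.18 (2 lower, 6 higher and median 0.57 with library-size scaling). Nfil3, a repressor that cycles with the clock, was at 22.6, 43.6, 44.3 and 35.1 CPM on ND and 18.6, 16.7, 10.8 and 9.24 CPM on CDAHFD (log2 change −1.41, SE 0.28, adjusted p = 0.000588). Bhlhe41, a repressor of the core clock, was at 7.77, 2.27, 3.22 and 6.42 CPM on ND and 13.2, 21.8, 21.4 and 18.0 CPM on CDAHFD (log2 change 1.96, SE 0.34, adjusted p = 0.000148). Neither overlapped between the diets, and they moved in opposite directions. The labels do not give the hour of tissue collection, on which the level of a clock gene depends. Among immediate early and heat shock genes, 3 of 10 tested genes (13 listed) were called higher and 2 lower, with a median of −0.21 (3 higher, 1 lower and median 0.19 with library-size scaling). Jun, a subunit of the AP-1 factor, was at 25.7, 13.3, 19.9 and 12.6 CPM on ND and 65.5, 58.8, 59.5 and 39.4 CPM on CDAHFD, higher in every CDAHFD library (log2 change 1.64, SE 0.21, adjusted p = 3.38e-06). Hsph1, a heat shock chaperone, was at 84.7, 46.7, 91.8 and 116 CPM on ND and 45.2, 32.5, 37.6 and 48.5 CPM on CDAHFD, where ND replicate 2 lay within the CDAHFD range (log2 change −1.05, SE 0.25, adjusted p = 0.00242).

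**Figure D2:**
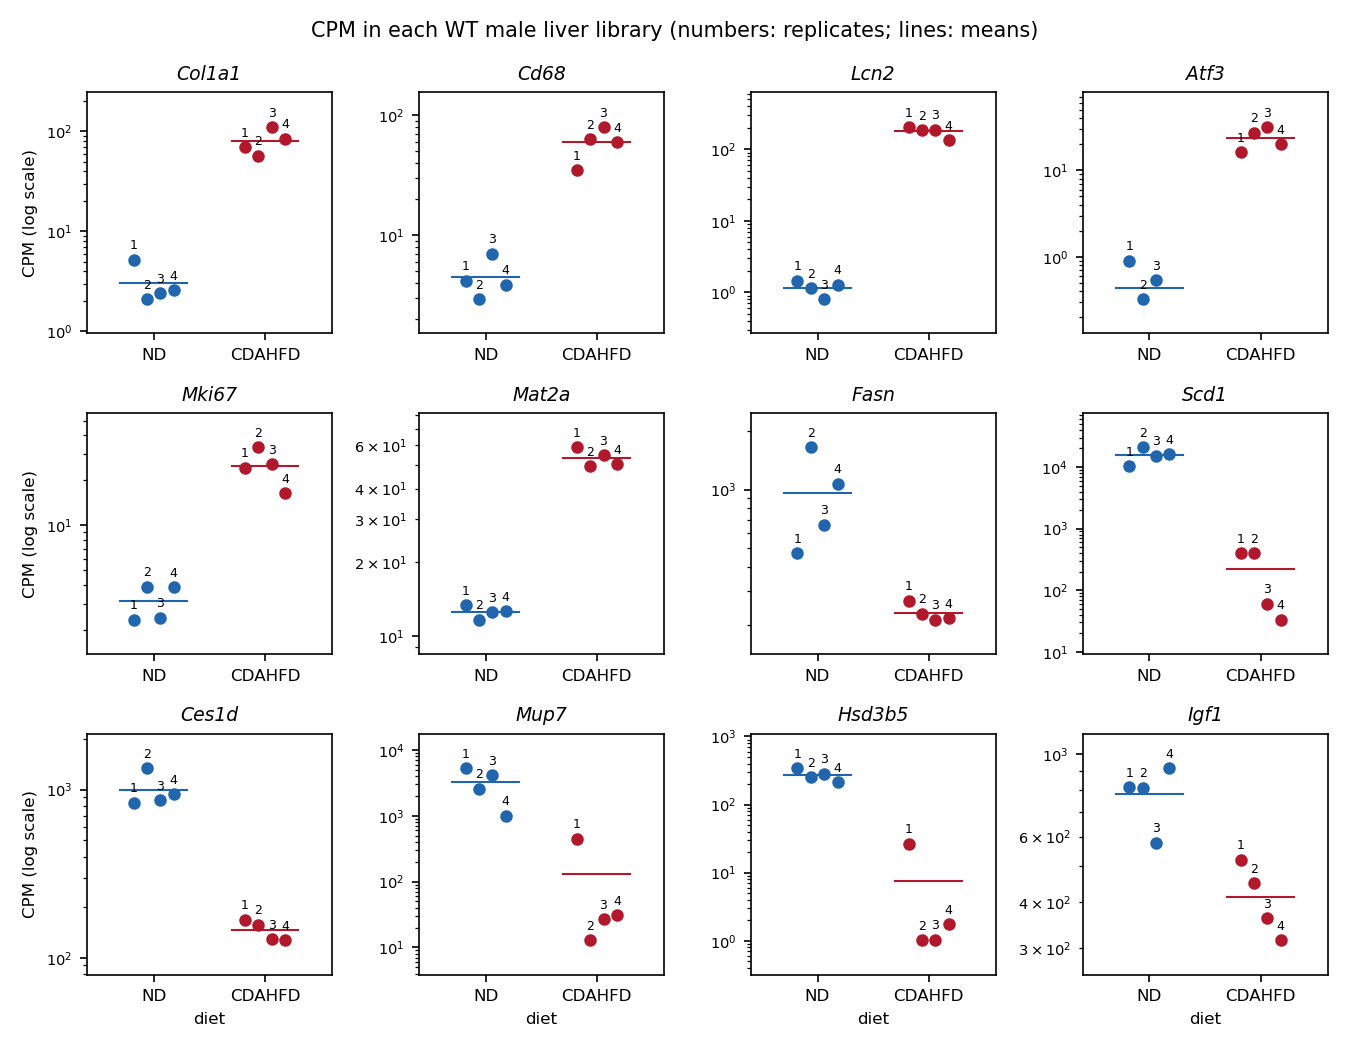
CPM on a log scale of named genes in each ND (blue) and CDAHFD (red) WT male library, points numbered by replicate and lines at the mean of 4, and a library at 0 CPM, as ND replicate 4 for Atf3, has no point. In every panel the diets do not overlap, from Col1a1 at 57.4 CPM or more on CDAHFD against 5.24 or less on ND to Hsd3b5 at 26.6 or less against 211 or more. The panels show chosen genes, and over all genes tested the diets did not overlap for 28.4%.

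The 4 CDAHFD livers were not equally far from ND. The level of a list in a library was taken as the median over its tested genes of log2 (CPM + 0.5) minus the mean of the ND libraries, for the 49 lists with at least 5 tested genes. CDAHFD replicate 1 was nearest to ND in 33 of the 49 lists, replicates 2 and 3 in 3 each and replicate 4 in 10, and many lists share genes. For male-biased liver genes the CDAHFD levels were −1.55, −2.82, −2.32 and −2.76 and for pan-macrophage markers 1.86, 2.70, 2.68 and 2.59, with replicate 1 nearest to ND in both. It was not so for cell cycle genes, at 1.88, 2.14, 1.91 and 1.49, where replicate 4 was nearest. Genes that passed the filter through CDAHFD only lean to rises. They were 14 of the 30 tested cell cycle genes and 4 of the 14 tested pan-macrophage markers. For collagens and matrix proteins the levels were 1.40, 1.41, 1.73 and 1.87, with replicate 1 nearest and replicate 2 next to it. Acute phase proteins differed from these, at 1.08, 0.86, 0.39 and 0.49, with replicate 1 the farthest from ND. The numbers name the libraries and carry no order, and the labels give no measurement of each mouse.

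**Figure D3:**
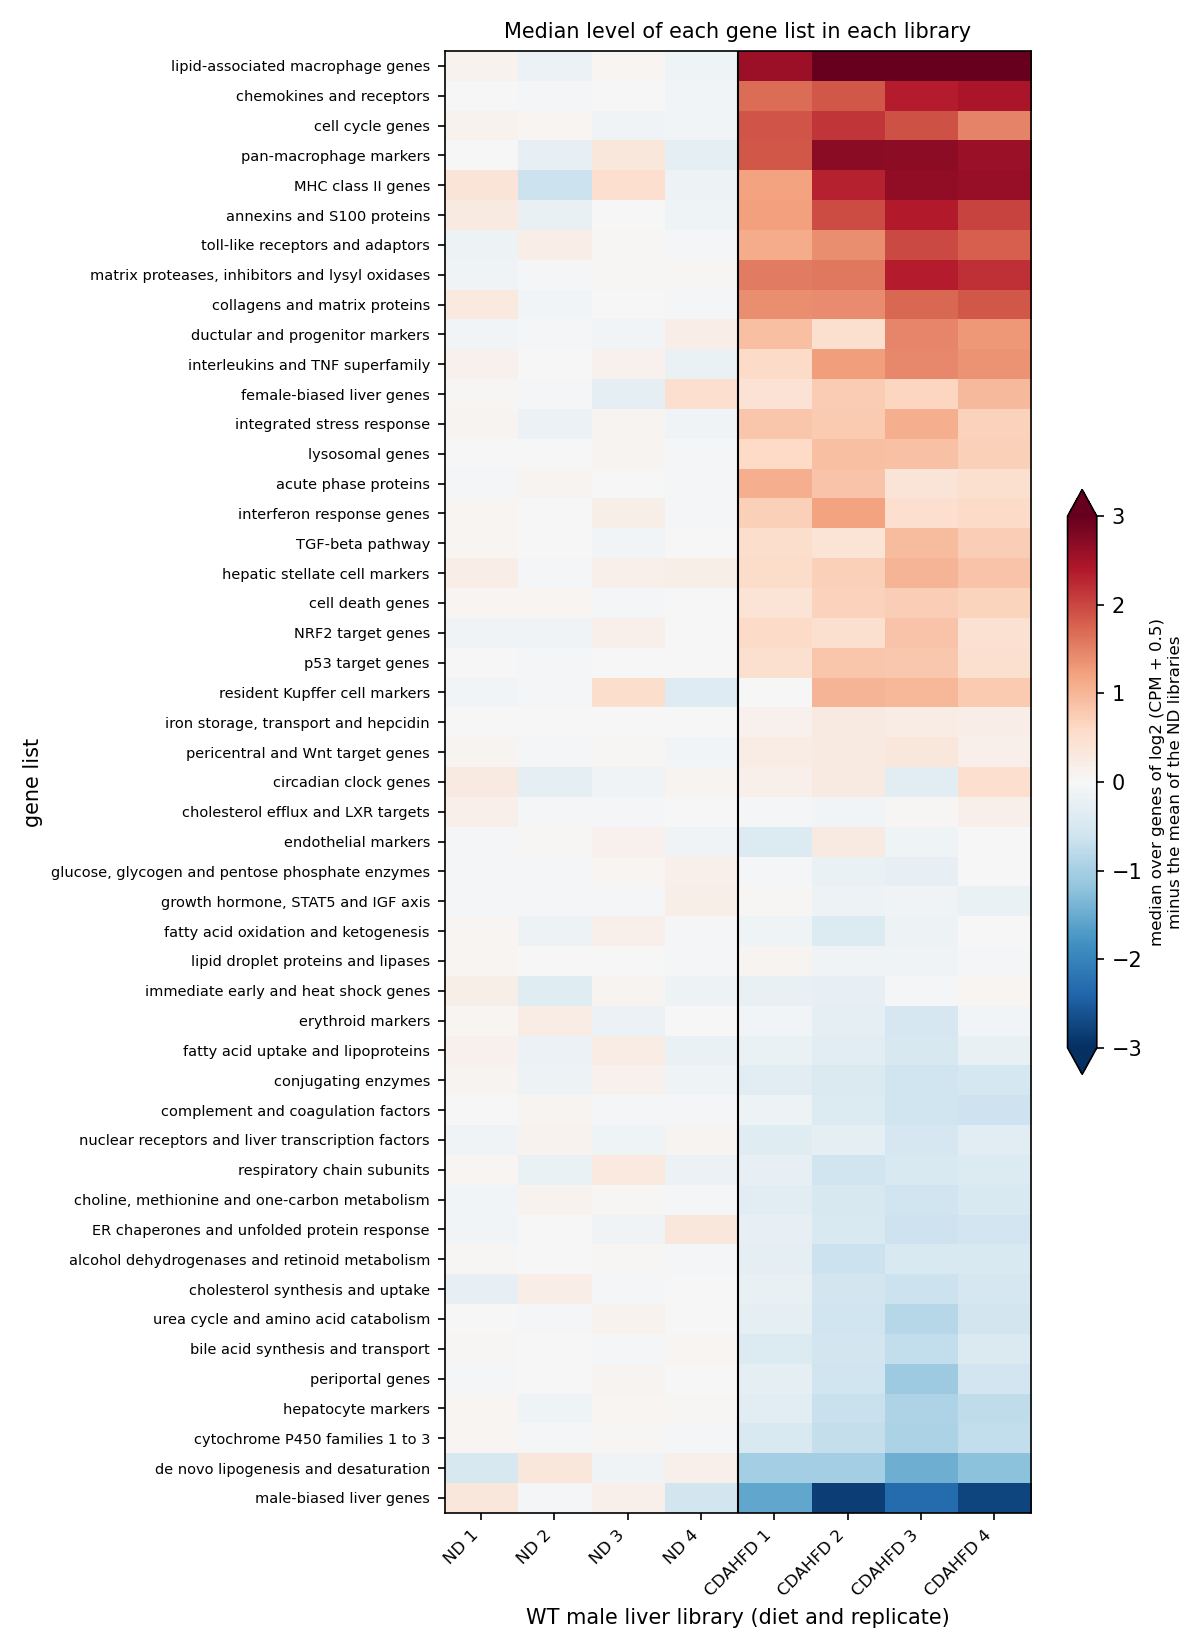
Median level of each list with at least 5 tested genes in each WT male library, as log2 (CPM + 0.5) minus the mean of the 4 ND libraries, red above and blue below. The CDAHFD columns depart from the ND columns at the top and bottom of the map, and CDAHFD replicate 1 is the palest in many lists, as in male-biased liver genes, at −1.55 against −2.82, −2.32 and −2.76 in the other CDAHFD libraries.

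Whether the diet effect of WT males differed from that of WT females was tested as an interaction in 1 fit of all 32 libraries. It was called for 136 of 14020 genes (0.970%), 94 with a positive and 42 with a negative difference, male minus female, and for 84 without female ND replicate 3, 90 without male ND replicate 2 or male CDAHFD replicate 2, 87 without male CDAHFD replicate 4 and 261 without male CDAHFD replicate 1. The number was 469 with no filter on low counts, 272 with the likelihood ratio test and 220 with DESeq2. It was 79 when only the groups compared were fitted. The lists of cytochrome P450 genes, male-biased and female-biased liver genes held 12, 9 and 7 of the 136 calls. The 5 genes with the smallest p were called whichever of the 16 WT libraries was left out. Being chosen by that p, they say nothing of the other calls. The first was Cyp2b9, which changed by 5.34 in WT males and −1.75 in WT females, a difference of 7.08 (SE 0.54, adjusted p = 1.35e-10). Mup20 changed by −0.59 in males, where it was not called, and by 4.70 in females, a difference of −5.29 (SE 0.51, adjusted p = 3.98e-08). Cyp2a22, a P450 of a family with near-identical members, changed by 2.18 and −1.60, a difference of 3.77 (SE 0.41, adjusted p = 4.48e-07). Slc22a27, an organic anion transporter higher in female liver, changed by 2.99 and −0.67, a difference of 3.65 (SE 0.42, adjusted p = 1.17e-06). Arsa, the lysosomal arylsulfatase A, changed by 0.61 and 2.17, a difference of −1.55 (SE 0.16, adjusted p = 2.31e-07).

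The same test against Cyp2b-null males called 1 of 13460 genes (0.00743%), Cyp2b9, with a difference of 6.97 (SE 0.96, adjusted p = 0.00493), and 817 genes had an unadjusted p under 0.05. With no filter on low counts the same test called 95 of 25760 genes. With the filter, the likelihood ratio test called 4 and DESeq2 called 3. Cyp2b9 is one of the genes the Cyp2b-null label stands for. Over the 4 libraries of a group, it had 26 counts in WT males on ND and 1027 on CDAHFD, and 40 and 18 in Cyp2b-null males. Without Cyp2b-null ND replicate 1 the difference was 6.86 and not called (adjusted p = 0.0564), so edgeR's quasi-likelihood test called 0 genes, with 1064 at an unadjusted p under 0.05 and 24 called by DESeq2, and without WT ND replicate 2 or Cyp2b-null CDAHFD replicate 3 it called 3. Chpt1 had the next smallest p, with changes of −0.77 in WT and −1.93 in Cyp2b-null males, and was not called (difference 1.15, SE 0.21, adjusted p = 0.100).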

How the data were processed

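Raw counts per gene, deposited by the authors in 1 table per sex, were made by them with GSNAP and Subread against GRCm38.p6, per the labels. Strand and handling of reads shared by paralogs are not stated, so values of near-identical or overlapping genes are uncertain. Diets were compared with edgeR 4.0.16 (R 4.3.3): filterByExpr (minimum count 10, total 15), TMM scaling, the quasi-likelihood test on 16 male libraries in 4 groups, and Benjamini-Hochberg adjustment over all genes tested. Differences between diet effects were interactions in the same kind of fit. DESeq2 1.42.0, other scalings, filters and tests, and leaving out each library were tried. Members and gene lists were chosen with earlier results of these data known. By rule, 214 genes could be named: the 10 largest rises and falls, the first 2 genes and the largest called rise and fall of each list, genes the study names for males, sex-linked genes, and the 5 smallest p of each interaction; 129 of them are described. Groups with 1 to 3 counts are given as ratios with exact 95% intervals. The labels give n = 4 per group and do not say more about separate animals.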

Additional observations from a re-analysis of the deposited data

Results flagged for a closer look

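In the 129 genes described, the diets gave 258 groups of 4 libraries, and in 13 of these 1 library lay far from the other 3 by Dixon's test, where chance gives about 1 group in 20 and so about as many. CDAHFD replicate 1 was such a library, each time the highest of its diet, for Gnmt (1099 CPM), Hsd3b5 (26.6), Mup7 (449), Slco1a1 (333) and Ugt2b1 (353). CDAHFD replicate 2 was the highest of its diet for Cyp2b13 (1.22 CPM) and Stab2 (70.2). Among ND libraries, replicate 1 was high for Adam8 (1.08 CPM) and Col1a1 (5.24), replicate 2 low for Mbl2 (334) and Slco1a1 (705), replicate 3 high for Nkg7 (0.403) and replicate 4 high for Gpnmb (0.428). For Nkg7 and Gpnmb the other 3 libraries were at 0, where any count is far by this test, and nothing is read from these 2.

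The diet effect differed between WT males and WT females for 16 of the 129 genes described, by the interaction in edgeR's quasi-likelihood test, which called 136 of all 14020 genes tested (0.970%). The 16 include the 5 genes that could be named for having the smallest p of this interaction, so their share is not comparable with that of all genes. The difference, male minus female on the log2 scale, was positive for Ccnd1 (1.59), Cd36 (1.51), Ctss (1.88), Cyp2a22 (3.77), Cyp2b9 (7.08), Glul (0.957), Itgam (2.76), Marco (2.83), Pkm (1.30), Slc22a27 (3.65), Soat1 (1.50), Tgfb1 (1.36) and Tlr4 (1.93). It was negative for Alas2 (-2.37), Arsa (-1.55) and Mup20 (-5.29). Cyp2b9 also differed between WT and Cyp2b-null males (6.97).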

How the results depend on the processing

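The number of genes called between the diets in WT males, 4443, was between 3506 and 5685 under the alternatives that leave out no library, among them 4519 with DESeq2, 4394 with RLE scaling and 4699 with no filter on low counts, and between 3666 and 4441 when 1 library was left out. DESeq2 called 4384 of the 4443 genes. With scaling by library size only, 3009 of the 4443 were called, and the split moved to 5102 higher and 583 lower. Leaving out the rRNA entries, an alternative chosen after seeing the data, gave 4424.

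The number of genes whose diet effect differed between the sexes, 136, was 220 with DESeq2, 469 with no filter on low counts, 79 when only the groups compared were fitted, 272 with the likelihood ratio test and 219 at an adjusted p under 0.1. It ran from 84 to 261 when 1 library was left out. The number that differed between genotypes, 1, was 3 with DESeq2, 2 with library size only, 95 with no filter and 4 with the likelihood ratio test, and ran from 0 to 3 when 1 library was left out. Causes of these shifts were not tested, except that no filter raised the genes tested to 27613 and 25760.

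Of 124 tested genes described, 103 were called. Under the alternatives that leave out no library, 4 of these were not called in at least 1 of them, 4 others were called and 0 changed direction. When 1 library was left out, 3 called genes were not called in at least 1 case and 1 other was called. Alb, Apoe and Igfbp1 were among these in both cases, with Cxcl12 in the first. Of 110 counts over lists, 47 moved by more than 1.5 times with library size only, 1 with DESeq2, 16 when only the groups compared were fitted and 3 to 18 when 1 library was left out, where, among counts of 5 or more, only those of Kupffer cell markers and iron genes called higher and of respiratory chain subunits called lower moved.

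The labels do not say that replicate numbers pair mice across diets, and the numbers were not used as pairs. The correlation across 10188 genes of same-numbered ND and CDAHFD libraries, after removing diet means, was 0.0835, 0.269, 0.154 and -0.0392, and the ND libraries nearest to CDAHFD replicates 1 to 4 were replicates 1, 2, 3 and 3, so 3 of 4 met their own number. With the number as a block, 4373 genes were called.

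With 4 livers per diet, changes smaller than the spread between livers could go uncalled. Genes under about 3 counts a library were at the limit of depth, and 0 of 9 NK cell markers and 2 of 12 T cell markers could be tested. Bulk tissue does not separate cell numbers from RNA per cell, diet components cannot be told apart, and paralogs may share reads. Library-size scaling shows how far moderate falls rest on the scaling chosen.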
